A study of Mus musculus with 112 samples.

Results

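In mice, 2911 stretches of the autosomal genome were low in DNA methylation (DNAme) in sperm of control F0 males. They were heavily methylated in prefrontal cortex, called brain here, of control F1 sons, but not all of them were as low in F1 sperm. They were chosen from reduced representation bisulfite sequencing (RRBS), which sequences short fragments cut at CpG-containing enzyme sites, so that CpG-dense DNA is sampled most, and reads unmethylated cytosines as thymine after bisulfite treatment. CpG cytosines with a value in 4 or more libraries of both control wild type (WT) F0 sperm and control WT F1 brain were joined when at most 100 bp apart, and regions of 3 or more cytosines over more than 50 bp were formed. Of 69884 such regions, the 2911 (4.17%) with a mean under 20% in control WT F0 sperm and over 80% in control WT F1 brain are called sperm-unmethylated, brain-methylated (SUBM) regions here. They held 20188 cytosines, with a median of 6 (3 to 78) cytosines and a median length of 109 bp (51 to 816 bp) in a region. By the same 2 limits, 26495 regions (37.9%) were unmethylated in both, 17713 (25.3%) were methylated in both, and 471 (0.674%) were methylated in sperm and unmethylated in brain.

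The levels in these 2 control groups chose the regions and are a description only. Just inside the sperm limit lay regions with means of 19.999%, 19.975% and 19.959%, and just outside it regions with 20.004%, 20.015% and 20.076%. Just inside the brain limit the means were 80.0003%, 80.001% and 80.017%, and just outside it 79.994%, 79.984% and 79.981%. The SUBM regions are thus the ends of 2 continuous ranges.

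The study asked whether cigarette smoke (CS) changes the methylome of sperm, whether such changes recede or appear in sons, and what loss of NRF2 does. F0 sperm libraries were from C57BL/6J WT males that breathed no smoke (control WT, n = 10), from males sampled after CS exposure (smoked WT, n = 9) and from exposed males left to recover without smoke over 3 increasing intervals (recovery 1, n = 9, then recovery 2 and recovery 3, n = 10 for either). Nrf2-/- males were on a C57BL/6J background, with Nfe2l2 disrupted in every tissue so that the stress-response factor NRF2 is missing. They gave F0 sperm without CS (control Nrf2-/-, n = 10) or with CS (smoked Nrf2-/-, n = 9). F1 sperm is from adult sons, 6 with a control WT and 7 with a smoked WT sire, and F1 brain is prefrontal cortex of adult sons, 8 for each of the WT or Nrf2-/- sire groups with or without CS. Every son had a CAST/EiJ mother, so its maternal genome is of another strain than the reference, and a son of an Nrf2-/- sire carried a single targeted allele. The tissue is a mixture of neurons and glia, and each library is a single animal.

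Methylation of CpG cytosines is erased in the germ line and laid down again before birth, and mature sperm is methylated at most of its genome except CpG-rich gene starts. A small set of promoters, mostly of genes used in germ cells, is known to be unmethylated in the germ line and methylated in the body, where DNAme keeps them silent. RRBS measures the methylation itself and gives no reading of whether a gene is transcribed.

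The sequences of 6 SUBM regions are shown because, among those that touch no untranslated exon, they held the most cytosines near a gene start, in an intron and between genes, 2 of each. They are given 5′ to 3′ on the forward strand of GRCm38 (mm10), with a CpG in capitals where at least 1 of its cytosines was scored. The first lies beside the start of Gm16280, a gene that overlaps Stab2 (chr10:86908847-86909146), and has 25 CpGs, of which 23 were scored. The second lies before the start of Hormad1, which encodes a protein of the meiotic chromosome axis (chr3:95559299-95559598, 14 CpGs, 13 scored).
Gm16280: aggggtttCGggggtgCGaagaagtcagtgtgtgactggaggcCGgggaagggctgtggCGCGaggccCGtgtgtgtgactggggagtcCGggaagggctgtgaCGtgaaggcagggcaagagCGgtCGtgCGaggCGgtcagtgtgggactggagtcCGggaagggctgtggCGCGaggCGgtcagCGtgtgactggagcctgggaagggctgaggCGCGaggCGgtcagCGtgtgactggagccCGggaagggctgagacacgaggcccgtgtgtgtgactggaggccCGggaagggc
Hormad1: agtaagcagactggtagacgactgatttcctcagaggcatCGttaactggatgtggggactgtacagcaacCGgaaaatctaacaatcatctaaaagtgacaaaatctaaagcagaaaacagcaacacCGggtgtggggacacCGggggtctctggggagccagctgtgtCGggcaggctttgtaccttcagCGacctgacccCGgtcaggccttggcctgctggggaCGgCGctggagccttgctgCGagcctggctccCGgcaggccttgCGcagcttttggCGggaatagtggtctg
The intronic sequences lie in 2010300F17Rik within Skap1 (chr11:96724138-96724368, 15 CpGs, 15 scored) and in Tmtc2, nearest to the start of Gm25422 (chr10:105238180-105238479, 17 CpGs, 13 scored). Whether these or the other sequences shown have near-identical copies elsewhere in the genome was not examined.
2010300F17Rik: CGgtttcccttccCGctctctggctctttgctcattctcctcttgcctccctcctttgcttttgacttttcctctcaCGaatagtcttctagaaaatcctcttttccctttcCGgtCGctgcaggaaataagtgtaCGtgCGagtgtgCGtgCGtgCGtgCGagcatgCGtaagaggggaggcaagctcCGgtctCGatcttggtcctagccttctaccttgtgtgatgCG
Gm25422: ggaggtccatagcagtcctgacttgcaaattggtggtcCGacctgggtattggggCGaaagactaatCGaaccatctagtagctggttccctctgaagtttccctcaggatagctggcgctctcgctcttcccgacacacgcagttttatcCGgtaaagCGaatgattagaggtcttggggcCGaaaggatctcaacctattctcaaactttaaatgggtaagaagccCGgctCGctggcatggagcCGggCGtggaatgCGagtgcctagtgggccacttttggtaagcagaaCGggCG
The intergenic sequences lie nearest to 1700017J07Rik (chr2:168970211-168970510, 15 CpGs, 12 scored) and to Gcnt1, an enzyme of glycan branching (chr19:17309315-17309614, 16 CpGs, 13 scored).
1700017J07Rik: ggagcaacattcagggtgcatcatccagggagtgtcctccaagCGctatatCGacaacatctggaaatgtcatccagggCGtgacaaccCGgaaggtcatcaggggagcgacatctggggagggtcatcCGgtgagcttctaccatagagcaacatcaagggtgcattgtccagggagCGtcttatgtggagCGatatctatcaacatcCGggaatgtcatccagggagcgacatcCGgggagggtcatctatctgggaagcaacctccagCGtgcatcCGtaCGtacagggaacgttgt
Gcnt1: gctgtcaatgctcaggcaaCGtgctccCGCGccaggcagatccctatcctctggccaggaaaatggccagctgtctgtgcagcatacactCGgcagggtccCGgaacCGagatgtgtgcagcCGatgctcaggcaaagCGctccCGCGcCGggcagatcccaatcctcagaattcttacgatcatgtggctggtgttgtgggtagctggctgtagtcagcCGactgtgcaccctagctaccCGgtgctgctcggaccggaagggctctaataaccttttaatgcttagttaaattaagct
A further pair was chosen after the values were seen, for results given later. The region nearest to Gm48597 (chr13:96989523-96989783, 11 CpGs, 10 scored) had the smallest p by Nrf2 genotype, and that near Mif, a cytokine gene (chr10:75865961-75866070, 8 CpGs, 7 scored), was methylated in F1 sperm as well.
Gm48597: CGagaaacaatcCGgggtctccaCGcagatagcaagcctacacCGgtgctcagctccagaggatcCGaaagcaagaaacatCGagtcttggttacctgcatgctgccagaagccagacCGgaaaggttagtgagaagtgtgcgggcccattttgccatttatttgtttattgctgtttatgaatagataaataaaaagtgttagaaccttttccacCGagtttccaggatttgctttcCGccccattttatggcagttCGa
Mif: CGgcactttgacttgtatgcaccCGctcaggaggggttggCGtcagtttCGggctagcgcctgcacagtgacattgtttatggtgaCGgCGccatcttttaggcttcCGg

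The place of the SUBM regions differed from that of the regions that were unmethylated in both tissues. A start of an annotated gene lay within 1 kb of 376 SUBM regions (12.9%), against 33.95% of all regions, 78.6% of those unmethylated in both and 2.35% of those methylated in both. Coding exons held 647 (22.2%, against 11.7% of all regions), introns 460 (15.8%, against 25.6%), other exons 268 (9.21%, against 1.95%) and untranslated exons 28 (0.962%, against 1.46%). The remaining 1132 (38.9%, against 25.4%) were intergenic. The median distance to the start of a protein-coding gene was 32348 bp, against 244 bp in regions unmethylated in both and 33413 bp in those methylated in both. Of regions methylated in both, 20.3% were in coding exons, 39.4% in introns, 1.76% in other exons, 1.74% in untranslated exons and 34.4% between genes. Of regions unmethylated in both, the shares were 4.14%, 7.34%, 0.996%, 0.672% and 8.22%. SUBM regions thus lay closer to the methylated class for gene starts and closer to the unmethylated class for introns and untranslated exons. For coding exons and intergenic sequence they lay somewhat above the methylated class, and for other exons far above both classes.

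**Figure D1:**
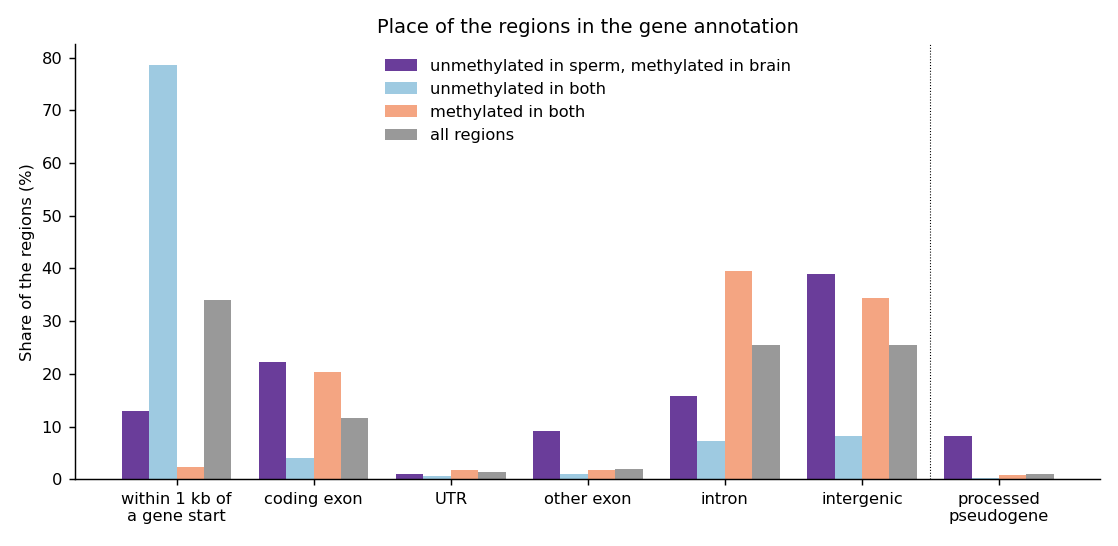
Share of regions (%, bars from 0) in each place of the GENCODE annotation for SUBM regions, regions unmethylated in both tissues, regions methylated in both and all regions; the last group of bars, right of the dotted line, is overlap with a processed pseudogene and is counted again beside the 6 places. SUBM regions were within 1 kb of a gene start in 12.9% and in a processed pseudogene in 8.31%, against 78.6% and 0.268% of regions unmethylated in both.

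Processed pseudogenes, which are reverse-transcribed copies of messenger RNAs, overlapped 242 SUBM regions (8.31%) but 675 of all regions (0.966%). Of the regions in a processed pseudogene, 35.9% were thus SUBM regions, and 225 of the 268 SUBM regions in other exons lay in one. The region with most cytosines (26) lay in Gm49264 on chromosome 9 (79342327 to 79342782). There smoked WT F0 sperm had 1.57% ± 1.40 (SD, n = 9), smoked WT F1 sperm 1.48% ± 0.941 (n = 7) and F1 brain of smoked WT sires 93.2% ± 1.09 (n = 8). Psmb5-ps, a copy of a proteasome subunit gene (23 cytosines, chromosome 11, 102659516 to 102659891), had 1.49% ± 0.493 (n = 9), 2.94% ± 2.20 (n = 4) and 92.5% ± 2.90 (n = 8). Rpl13-ps1, a copy of a ribosomal protein gene (19 cytosines, chromosome 11, 85111138 to 85111368), had 2.05% ± 1.27 (n = 7), 1.58% ± 0.924 (n = 3) and 92.5% ± 2.74 (n = 7). In Gm14143 (22 cytosines, chromosome 2, 150933464 to 150933718) F1 sperm lay higher, with 7.10% ± 2.60 (n = 9) in F0 sperm, 23.3% ± 3.13 (n = 5) in F1 sperm and 85.5% ± 2.63 (n = 7) in brain. Short reads from near-identical copies can be placed at the wrong one, so values in pseudogenes and in any other copied sequence are uncertain.

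In base composition the SUBM regions lay between both classes and close to regions in general. In the 200 bp around the middle of a region they had a median of 3.5 CpGs per 100 bp, against 8 in regions unmethylated in both and 2.5 in those methylated in both, and 3.5 in all regions. The CpG observed over expected ratio had medians of 0.534, 0.783, 0.461 and 0.557 in the same order, and GC content medians of 54.0%, 65.5%, 49.5% and 54.5%. Motifs were sought on both strands of these 200 bp. The MspI cut site CCGG, from which many RRBS fragments start, was in 80.4% of SUBM regions and 73.7% of all regions, and the TaqI cut site TCGA in 46.2% and 48.3%. TCCCGC, bound by E2F factors, was in 9.65% and 13.4%. CACGTG, the E-box of MYC and MAX, was in 5.77% and 4.34%. CCAAT, bound by NF-Y, was in 22.8% and 19.103%. GCGCA, part of the NRF1 site, was in 21.1% and 23.1%, TGACG, part of the CREB and CREM site, in 13.2% and 13.02%, and GTTGCC, part of the RFX site, in 7.80% and 7.22%. Against all regions, the widest gaps in share were at CCGG and CCAAT, more frequent in SUBM regions, and TCCCGC, less frequent. CCGG was in 96.1% of regions unmethylated in both and 50.3% of those methylated in both, and TCCCGC in 27.2% and 3.73%. At these motifs SUBM regions thus lay between both classes. CCAAT was in 15.3% and 21.7%, the latter close to the SUBM share.

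Most SUBM regions stood alone. The nearest other region was within 2000 bp for 870 of them (29.9%), against 41.6% of all regions, and that neighbour was also under 20% in F0 sperm and over 80% in brain of the smoked WT groups, which the choice of regions did not use, in 416 cases (47.8%). Among all regions with such a neighbour, 3.16% had one in this state. A neighbour in their own state was found as often or more often for regions methylated in both (51.7%) and unmethylated in both (92.3%). Of the other neighbours of SUBM regions, 93 (10.7%) were unmethylated in both and 67 (7.70%) methylated in both. When joined at most 5 kb apart, 2468 SUBM regions stood alone, 187 pairs and 20 triples formed, and a group of 4 lay near Tmem30a. The longest group of 5, with 108 cytosines, ran over chr7:5029746-5032156 in Zfp865, a zinc finger gene, next to the start of 4632433K11Rik. The share of regions that were SUBM regions ran from 2.74% on chromosome 11 to 5.78% on chromosome 10.

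Genes in lists of germ cell genes were well represented at the SUBM regions near gene starts. All gene lists were chosen with earlier results of these data known, so their shares are a description only. Lists of germ cell genes held 129 genes with a region within 1 kb of their start, and 32 of them (24.8%) had a SUBM region there, against 244 of 12945 (1.88%) of all protein-coding genes. By list, these were 9 of 21 genes under genome defence and the piRNA pathway and 8 of 35 under meiosis. Germ cell regulators had 8 of 27, and spermatids and sperm 8 of 47. Some listed genes have other roles, such as Rpl39l in the first list, a ribosomal protein gene, and Slc25a31 in the third, a carrier. Mael stood in 2 of these lists. Near the starts of all germ cell list genes lay 201 regions, of which 38 were SUBM regions. Of the 163 others, 127 were under 20% in both smoked WT F0 sperm and brain of smoked WT sires, 7 were over 80% in both and 29 were neither. The genes described next are thus those that the choice of regions kept, and their low sperm and high brain levels restate that choice. Of 88 genes in lists for neurons, glia, blood, other organs and pluripotency, 1 (1.14%) had a SUBM region, Myog, a regulator of muscle differentiation. The separate counts were 0 of 38 for neurons, 0 of 17 for glia, 0 of 6 for blood, 1 of 15 for liver, skin, gut and muscle, and 0 of 12 for pluripotency. The last count depends on the lists and on the 1 kb limit. Dppa2, a developmental pluripotency-associated gene, was counted under germ cell regulators, and Zfp42, a marker of pluripotent cells, had a SUBM region in a coding exon.

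Genome defence genes keep transposable elements silent in germ cells. Mael, which acts in piRNA-guided silencing, had 26 scored cytosines over its start (chr1:166238596-166238774). In smoked WT F0 sperm the lowest, median and highest library had 0%, 1.27% and 6.46% (n = 9), and the 4 F1 sperm libraries with a value had 0.472%, 1.06%, 2.18% and 3.36%. In F1 brain of smoked WT sires they ran from 87.9% over 90.7% to 95.7% (n = 7). Every sperm library thus lay far below every brain library. Piwil2, a piRNA-binding protein, had the highest sperm level of these genes, at 14.6% ± 3.21 (n = 9) in F0 and 15.8% ± 2.79 (n = 7) in F1, against 92.3% ± 2.62 (n = 7) in brain. Asz1, a piRNA pathway protein of mitochondria, had 0.836% ± 1.17 (n = 9) in F0 sperm and 95.2% ± 2.18 (n = 7) in brain, and Gtsf1, another piRNA factor, had 2.67% ± 0.943 (n = 9) and 96.5% ± 1.18 (n = 8). The SUBM region of Rnf17, of 4 cytosines, had 80.6% ± 4.26 (n = 8) in brain, and a further region of 19 cytosines near its start had 62.1% ± 4.90 (n = 7), under the threshold of the choice. Tex19.1 and its relative Tex19.2, both silencers of transposons, had 2 SUBM regions each. D1Pas1, a helicase gene, and Rpl39l, a ribosomal protein gene used in testis that the list also holds, had 1 each.

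Of the 8 meiotic genes with a SUBM region, Hormad1 had 29 scored cytosines over chr3:95559227-95559669. The smoked WT F0 sperm libraries ran from 0.783% over 1.63% to 8.56% (n = 8), the F1 sperm libraries had 0.657%, 1.97%, 2.62% and 3.69%, and the brain libraries ran from 85.4% over 90.1% to 93.2% (n = 7). Spo11, which cuts DNA to start recombination, had F0 sperm libraries from 0% over 1.21% to 4.37% (n = 9), F1 sperm libraries at 0%, 0.851%, 1.54% and 2.06%, and brain libraries from 89.3% over 92.8% to 96.1% (n = 7). Sperm and brain libraries did not meet at either gene. Sycp1 and Stag3, of the synaptonemal complex and meiotic cohesin, had 1.10% ± 0.757 (n = 6) and 8.89% ± 5.73 (n = 8) in smoked WT F0 sperm and 87.8% ± 1.20 (n = 7) and 93.3% ± 2.17 (n = 6) in brain. The SUBM region of Stag3 held 4 cytosines, and the other 2 regions scored near its start, of 16 and 6 cytosines, had 0.820% and 0.888% in brain. Ankrd31, Hsf2bp and Majin, which act in recombination and telomere attachment, had brain means of 94.9%, 93.3% and 85.7%. Tex101, a germ cell surface protein, had 1.42% ± 0.654 (n = 9) in F0 sperm, 0.946% ± 0.768 (n = 7) in F1 sperm and 93.3% ± 1.19 (n = 8) in brain.

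Of the germ cell regulators and spermatid genes with a SUBM region, Sohlh2, a transcription factor of early germ cells, had SUBM regions of 20 and 13 cytosines, with 0.762% ± 0.365 (n = 9) and 0.442% ± 0.658 (n = 8) in smoked WT F0 sperm and 97.3% ± 0.736 and 90.6% ± 3.07 in brain (n = 7 each). Hist1h2aa and Hist1h2ba, testis histone genes, shared both of their SUBM regions because their starts are close together. Slc25a31, a testis carrier of ATP and ADP, had brain means of 88.7% and 87.5% at its 2 regions. Among spermatid genes, Actl7b, an actin-like protein of the sperm head, had 1.14% ± 1.42 (n = 9) in F0 sperm, 4.34% ± 2.32 (n = 6) in F1 sperm and 96.9% ± 1.24 (n = 7) in brain. Pdha2, the testis form of a pyruvate dehydrogenase subunit, had 1.63% ± 1.99 (n = 9), 1.09% ± 2.06 (n = 6) and 96.2% ± 2.59 (n = 7). Tnp1, a protein that replaces histones in spermatids, had brain means of 81.0% and 89.0%. Pabpc6, an intronless gene of the poly(A)-binding family, had 0.683% ± 0.925 (n = 8) in F0 sperm and 92.6% ± 2.02 (n = 8) in brain. Rpl10l, a ribosomal protein gene, had 94.9%, 96.6%, 97.2% and 97.7% in the 4 libraries with a value in F1 brain of smoked WT sires.

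**Figure D2:**
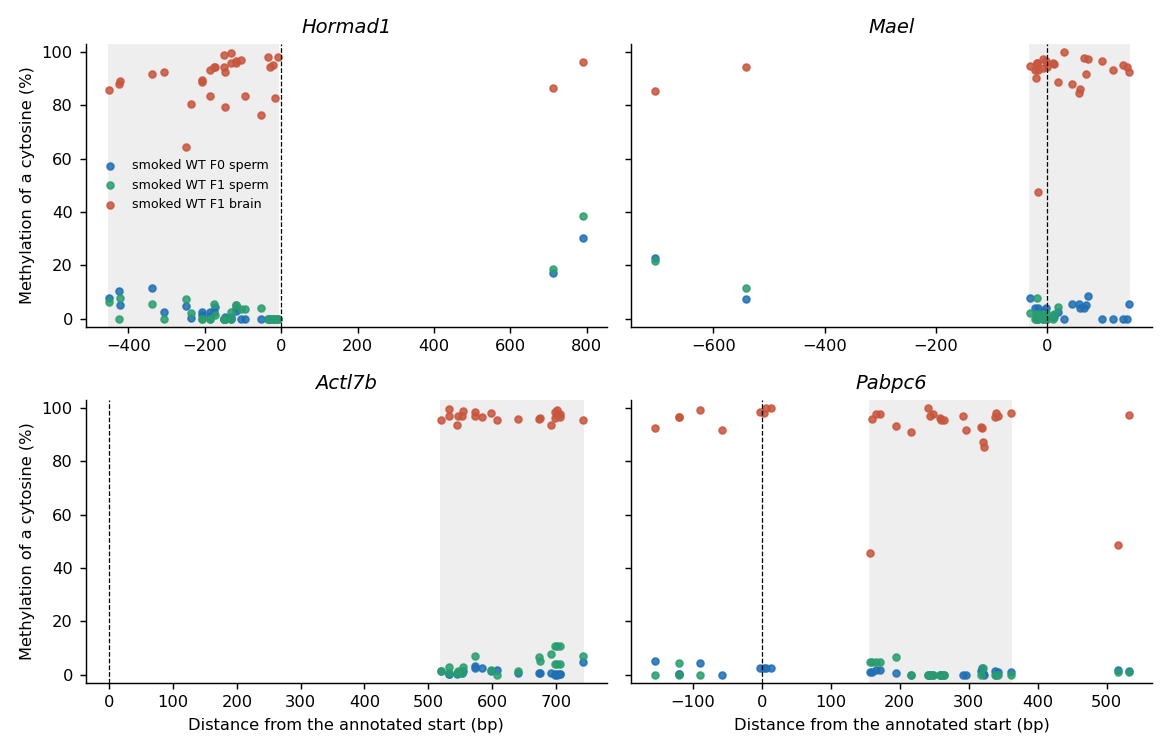
DNAme of single cytosines (%) against distance from the annotated start (bp, dashed line; positive is downstream) at 4 germ cell genes, as means of smoked WT F0 sperm (blue), smoked WT F1 sperm (green) and F1 brain of smoked WT sires (red), with the SUBM region shaded. Within the shading all F0 sperm cytosines lay at or below 11.5%, and brain cytosines lay between 45.8% and 100%.

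Single cytosines in sperm reached somewhat above the mean of their region. At Hormad1 they lay at -450 to -8 bp from the start and had 0% to 11.5% in smoked WT F0 sperm and 64.3% to 99.7% in brain. The 26 cytosines at Mael ran from -30 to 148 bp, with 0% to 8.57% in smoked WT F0 sperm and 47.6% to 100% in brain. At Actl7b, 23 cytosines from 520 to 743 bp after the start had 93.7% to 99.6%, and at Pabpc6, 22 cytosines from 157 to 361 bp had 45.8% to 100%.

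The SUBM regions with most cytosines were not all at gene starts. The longest run of cytosines, 78 over chr5:92941807-92942558, lay in a coding exon of Shroom3, which shapes epithelial cells. There the smoked WT F0 sperm libraries ran from 0.367% over 0.735% to 1.36% (n = 9), the 5 F1 sperm libraries had 0.305%, 1.07%, 1.76%, 2.72% and 5.64%, and the brain libraries ran from 87.8% over 89.5% to 91.4% (n = 8). Next were a coding exon of Zfp865 (66 cytosines, chr7:5030967-5031782) with 1.06% ± 0.771 (n = 9) in F0 sperm and 85.1% ± 1.27 (n = 7) in brain, and the start of Hsf5, a heat shock factor used in spermatogenesis (58 cytosines, chr11:87617033-87617398), with 1.29% ± 1.09 (n = 9) and 85.3% ± 1.51 (n = 8). Coding exons also held the regions of Dsp, a desmosome protein (42 cytosines), Zfp42, a marker of pluripotent cells (41), Arid1b, a chromatin remodeller (40), and F2r, the thrombin receptor (34). Among these 4, F0 sperm means were 10.3%, 3.95%, 5.28% and 1.35%, and brain means were 93.3%, 94.2%, 91.8% and 96.0%. The starts of Hdgfl1 (35 cytosines) and Gm16280 (35) had 0.829% ± 0.486 and 2.12% ± 0.586 (n = 9 each) in F0 sperm and 96.9% ± 0.776 and 92.0% ± 1.14 (n = 7 each) in brain. In a coding exon of BC048644 and Car5a (34 cytosines), F1 sperm had 21.9% ± 3.95 (n = 6), against 10.2% ± 1.91 (n = 9) in F0 sperm.

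Levels in the 11 groups that the choice did not use followed those that it used, as the plot of library means shows. The median SUBM region had 3.68% to 4.75% in the 6 other F0 sperm groups, 6.43% in control WT and 7.17% in smoked WT F1 sperm, and 88.8% to 90.8% in the 3 other brain groups. Averaged over all SUBM regions with a value, smoked WT F0 sperm libraries had 5.94% ± 0.619 (SD, n = 9), recovery 1, 2 and 3 had 5.90% ± 0.512 (n = 9), 5.86% ± 0.657 (n = 10) and 5.51% ± 0.237 (n = 10), and control and smoked Nrf2-/- had 6.35% ± 0.535 (n = 10) and 6.63% ± 0.823 (n = 9). The control WT libraries, which were used in the choice, had 6.16% ± 0.998 (n = 10). F1 sperm libraries had 11.8% ± 0.981 (n = 6) with control WT sires and 13.02% ± 1.74 (n = 7) with smoked WT sires. Brain libraries had 89.8% ± 1.17 with smoked WT sires, 89.2% ± 1.05 with control Nrf2-/- sires and 87.7% ± 1.92 with smoked Nrf2-/- sires (n = 8 each), beside 89.5% ± 0.647 in the control WT group of the choice. The number of cytosines with a value was 800605 to 1855573 in a F0 sperm library, 510221 to 1429075 in F1 sperm and 1332992 to 1711397 in brain, and SUBM regions with a value numbered 2495 to 2900, 720 to 2571 and 1424 to 2881. The reads behind a percent are not known. Over the 336 SUBM regions with a value in all 112 libraries, the group means were 6.24% to 7.88% in the F0 sperm groups, 9.91% and 10.6% in F1 sperm and 89.3% to 90.1% in brain.

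**Figure D3:**
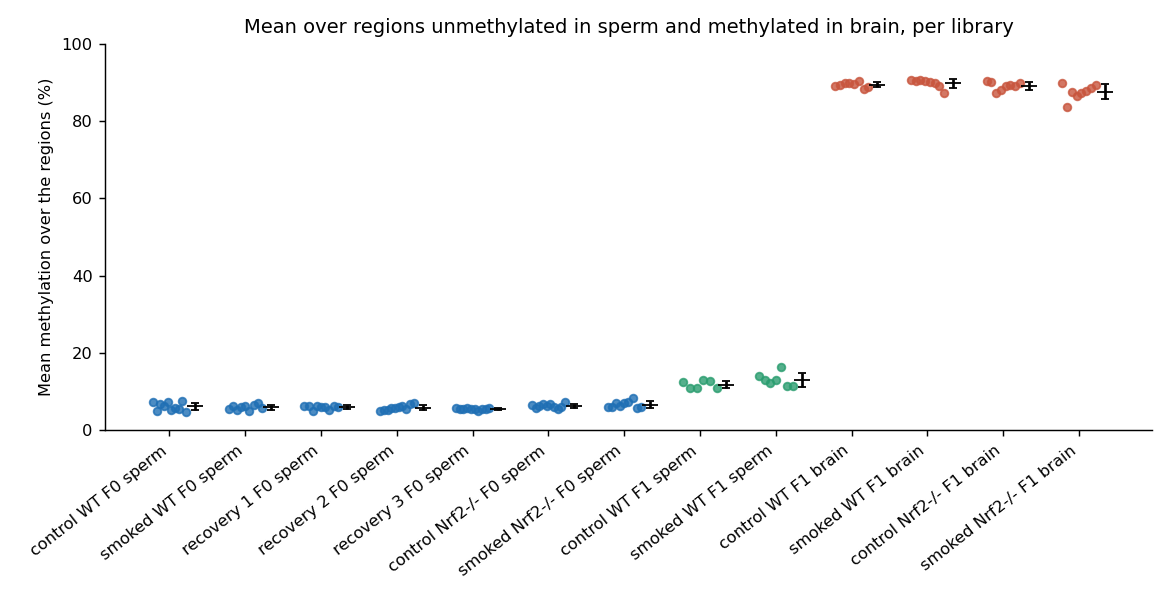
Mean DNAme over the SUBM regions with a value (%, points) in each of the 112 libraries by group, with the mean and SD of the group in black beside them; the groups named Nrf2-/- F1 brain are sons of Nrf2-/- sires. F0 sperm libraries (blue) lay between 4.84% and 8.23%, F1 sperm (green) between 10.9% and 16.3%, and brain (red) between 83.8% and 90.7%.

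Imprinted promoters, which are methylated on the maternal allele alone and so unmethylated in sperm, were used to check the tissues. Over 27 regions within 1 kb of starts of such genes, library means ran from 0.416% to 2.73% in F0 sperm, from 0% to 6.86% in F1 sperm and from 10.2% to 30.5% in brain. Some of these regions were unmethylated in brain as well, which lowers the brain means. In brain of smoked WT sires, 1 region at Inpp5f had 0.901% and that at Grb10 1.03%, while that at Mest had 62.2%. Of loci methylated on the paternal allele, Meg3 had 84.4% in smoked WT F0 sperm, 59.6% in smoked WT F1 sperm and 27.2% in brain of smoked WT sires, whereas the scored regions near H19 and Rasgrf1 were at or below 2.08% in every sperm group. None of the imprinted regions (0) was a SUBM region. No sperm library reached the level of a brain library. The F1 sperm library at 6.86% had a value at 720 SUBM regions, the fewest of the 112.

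The tissue contrast was tested in sons of smoked WT sires, whose libraries had no part in the choice. limma (linear models with moderated variances) was fitted over all 52083 regions with 4 or more libraries in both tissues, and a region was called at a Benjamini-Hochberg (BH) adjusted p below 0.05. Of 2271 SUBM regions tested, 2261 (99.6%) were called higher in F1 brain than in F1 sperm and 0 were called lower by limma, against 29.2% of all regions called higher. The libraries of the 2 tissues did not overlap at 2238 SUBM regions, against 38.5% of all regions. The median difference was 81.4 points. All 299 SUBM regions near gene starts, all 189 in processed pseudogenes and all 24 near starts of germ cell list genes that could be tested were called, as were 523 of 524 in coding exons, 371 of 372 in introns and 844 of 851 between genes. The 640 SUBM regions not tested had too few F1 sperm or brain libraries. SUBM regions were chosen for a wide gap between control F0 sperm and control F1 brain, so these shares largely restate that choice. The adjustment for missing cytosines also used cytosine means pooled over all brain groups, control WT among them.

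Single regions differed by almost the full range. At the start of Tuba3a, a testis tubulin gene (10 cytosines, chr6:125285980-125286083), 5 of 5 F1 sperm libraries had 0% and the 5 brain libraries had 93.8%, 96.7%, 97.2%, 97.2% and 100%. A coding exon of Soga3 nearest to the start of Gm49353 had 0.389% ± 0.444 (n = 6) in F1 sperm and 97.3% ± 1.43 (n = 8) in brain, and one of Hhipl2 had 0.596% ± 0.690 (n = 7) and 97.9% ± 1.36 (n = 7). Kif2b, a kinesin gene, had F1 sperm libraries from 0.249% to 2.91% (n = 7) and brain libraries from 95.7% to 96.6% (n = 8) at a region 657 bp from its start, a difference of 94.9 points (limma SE 1.60, adjusted p = 3.08e-16). Usp44, a deubiquitinase gene, differed by 95.8 points (SE 1.61) with the same adjusted p in a coding exon.

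In this test 10 of the 2271 SUBM regions were not called, and in 9 of them F1 sperm averaged 78.1% or more. Near Mif (chr10:75865961-75866069), whose sequence is given above, the 5 smoked WT F1 sperm libraries had 82.3%, 83.0%, 83.8%, 83.8% and 89.8%, and the brain libraries ran from 81.3% over 85.8% to 93.1% (n = 7). The smoked WT F0 sperm libraries there ran from 0% over 5.65% to 12.2% (n = 9), and the 3 control WT F1 sperm libraries had 82.9%, 85.7% and 87.1%. Sons of control and of smoked sires were thus both high, and both lay apart from F0 sperm. Near Gm49742, F1 sperm had 96.8% ± 2.74 (n = 6) and brain 91.5% ± 6.19 (n = 7), against 9.46% ± 7.48 (n = 8) in smoked WT F0 sperm. In an intron of Cntnap2, F1 sperm had 85.8% ± 3.36 (n = 6) and brain 83.4% ± 6.42 (n = 8), against 12.8% ± 3.87 (n = 9). In a coding exon of Aldh8a1, an enzyme of retinal metabolism, the values were 78.1% ± 16.6 (n = 6), 92.2% ± 4.35 (n = 7) and 9.41% ± 6.47 (n = 9). The remaining one was a region near Tmem273, with 49.3% ± 16.2 (n = 5) in F1 sperm and 71.5% ± 25.1 (n = 5) in brain.

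These values led to a comparison of F1 with F0 sperm that was added after the data were seen. In smoked WT F1 sperm, 1355 of 2274 SUBM regions (59.6%) were under 10%, 405 were from 10% to under 20%, 372 from 20% to under 40%, 106 from 40% to under 60%, 28 from 60% to under 80% and 8 at 80% or more. Of regions unmethylated in both control groups, 97.8% were under 10% in the same libraries. In F0 sperm, no SUBM region (0) averaged over 40% in any group. Of 1551 SUBM regions with 4 or more libraries in both F1 sperm groups, 83 were over 40% in sons of smoked WT sires, 73 in sons of control WT sires and 64 in both. Over these 1551 regions the group means of the 2 kinds of sons had a Pearson r of 0.967, a description over regions, which are not independent and were measured with the same protocol. The adjustment for missing cytosines also used cytosine means pooled over both groups of sons, which can bring their means closer. Of the 64, 33 (51.6%) were intergenic, as were 576 of the 1551, and the highest mean of any of them in any of the 6 other F0 sperm groups was 34.7%.

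**Figure D4:**
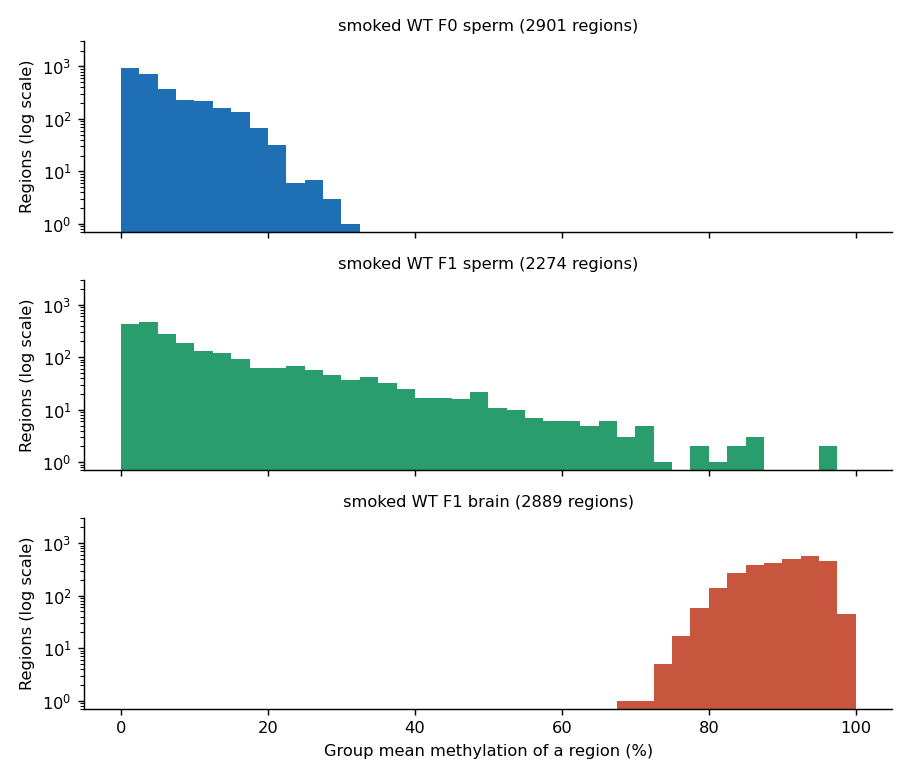
Number of SUBM regions (log scale) by group mean DNAme (%, bins of 2.5 points) in smoked WT F0 sperm, smoked WT F1 sperm and F1 brain of smoked WT sires, for regions with 4 or more libraries. F0 sperm ended below 32%, F1 sperm reached 96.8%, and no brain mean lay under 69.5%.

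By limma, 774 of 2272 SUBM regions (34.1%) were called higher in smoked WT F1 than smoked WT F0 sperm and 29 (1.28%) were called lower, against 9.13% and 13.1% of all 51711 regions. Of regions unmethylated in both, 3.04% were called higher and 0.379% lower, and of regions methylated in both 2.44% and 25.2%. The libraries did not overlap at 401 of the 2272 SUBM regions, against 9.79% of all regions. The median difference was 2.47 points, and F1 sperm was called higher at 41.3% of intergenic SUBM regions, 34.3% of those in introns, 28.7% in coding exons, 28.5% near gene starts and 22.1% in processed pseudogenes. Near starts of germ cell list genes, 3 of 24 were called higher. Since values in F0 sperm are near 0, a difference had more room upward than downward. The choice of regions also asked for low control WT F0 sperm and high control WT F1 brain. It thus favoured any difference from F0 that F1 sperm and F1 brain share, and the excess over all regions carries that choice.

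The smallest p was at a region on chromosome 18, which is not described. Next came the region near Mif, which differed by 79.3 points (limma SE 3.05, adjusted p = 7.99e-10). An intergenic region nearest to Plekha5 (chr6:140340017-140340097) had 36.3% to 47.3% in 5 F1 sperm libraries and 1.63% to 3.13% in 9 F0 sperm libraries, a difference of 41.8 points (SE 1.65, adjusted p = 9.06e-10). One nearest to Mphosph6 had 53.1% ± 4.43 (n = 6) and 4.61% ± 2.53 (n = 9). In an intron of Lingo2, a neuronal surface protein (chr4:36351553-36351714), F1 sperm had 81.7% ± 7.70 (n = 7) and F0 sperm 10.9% ± 2.83 (n = 9). The groups did not overlap at any of these. Chosen after their values were seen, the start of Crhbp, which binds corticotropin-releasing hormone, had 37.8% ± 4.33 (n = 5) and 1.87% ± 1.92 (n = 9), and a region 992 bp from a start of Dnmt1, the maintenance methyltransferase, had 58.1% ± 5.03 (n = 5) and 8.01% ± 3.93 (n = 9). F1 and F0 males differ in generation and in the CAST/EiJ mother of the sons, their library columns carry separate series of facility numbers, and these cannot be told apart. Library means over the imprinted promoters were 0.866% to 3.34% in smoked WT F1 sperm and 0.706% to 1.61% in smoked WT F0 sperm, while Meg3 had 59.6% in the former and 84.4% in the latter, against 27.2% in brain. Their part in the result was not tested.

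Loss of NRF2 was examined in sperm of CS-exposed males. Of 2868 SUBM regions tested, 18 were called higher in smoked Nrf2-/- than in smoked WT F0 sperm, against 0.175% of all 64100 regions, and 2 were called lower, against 0.145%, by limma with BH adjustment. The choice asked for low control WT F0 sperm, so a difference from WT had more room upward. The excess over all regions and its direction carry that choice. The libraries did not overlap at 9 of the 2868 (against 0.222% of all regions), 6 of which were among the 20 called. The differences of the 20 ran from 2.498 to 14.8 points in size. Without smoked Nrf2-/- column 7 the count was 13, with the 2 groups fitted alone 10 and with array weights 33. At 20 of 20, the mean of the control Nrf2-/- libraries lay on the same side of the mean of the 29 recovery libraries, by as little as 0.457 points in an intron of Ank2. The means of these libraries did not enter the contrast, but the libraries shared its estimate of spread. In brain of smoked WT sires these 20 regions had 84.1% to 96.3%. All Nrf2-/- F0 libraries carried lower facility numbers than all WT libraries, and the Nrf2-/- males came as a separate stock. Genotype, stock and the facility's series thus cannot be told apart. Over all regions, the highest counts of calls were on chromosome 2, which holds Nfe2l2 (33, of 5488 regions formed there), chromosome 6 (22, of 3417) and chromosome 13 (19, of 3073). Every other autosome had calls as well, from 3 on chromosomes 15 and 18 to 15 on chromosome 11. SUBM regions made up 1, 2 and 1 of the calls on chromosomes 2, 6 and 13, and the part of linked or stock DNA was not tested.

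The smallest p belonged to a region that was lower in Nrf2-/- sperm. That region, nearest to Gm48597 (chr13:96989523-96989782), with its sequence given above, lies between genes, 38609 bp from the start of Gm48597. Smoked Nrf2-/- libraries ran from 0.832% to 5.76% with a mean of 2.80% ± 1.62 (n = 9), and smoked WT libraries from 9.45% to 14.8% with a mean of 11.3% ± 1.85 (n = 9), a difference of -8.53 points (limma SE 0.874, adjusted p = 4.87e-10). Control Nrf2-/- had 2.56% (n = 10), while control WT and recovery 1, 2 and 3 had 12.8%, 11.4%, 11.6% and 11.2%. No Nrf2-/- library reached the level of a WT library. The other region that was lower lies 32243 bp from Lpl, the gene of lipoprotein lipase, with 8.93% ± 3.67 against 16.9% ± 2.04 (n = 9 each, adjusted p = 0.0238).

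Among the 18 called higher, an exon of Gm4482 within Slc2a3, a glucose transporter gene (chr6:122792780-122793085), had 26.8% ± 6.52 in smoked Nrf2-/- and 11.99% ± 2.03 in smoked WT F0 sperm (n = 9 each). The difference was 14.8 points (SE 2.20, adjusted p = 2.01e-05), and control Nrf2-/- sperm had 22.6%. Prph2, which shapes the outer segments of photoreceptors, had 20.1% ± 4.34 against 11.97% ± 2.23 at a region 705 bp from its start (adjusted p = 3.35e-04), with 19.02% in control Nrf2-/- sperm. A region 16603 bp from Nkx3-2, a homeobox gene of the skeleton, had 30.5% ± 6.87 against 16.2% ± 2.88 (adjusted p = 5.71e-04) and 25.5% in control Nrf2-/- sperm. An intron of Cav1, the gene of caveolin, had 23.2% ± 11.7 against 8.601% ± 1.29 (adjusted p = 0.00380), and control Nrf2-/- sperm was higher still at 31.3%. Near Gtf3a, a transcription factor of 5S RNA genes, smoked Nrf2-/- had 13.2% ± 1.44 against 6.88% ± 1.86 (adjusted p = 1.38e-04), but control Nrf2-/- sperm had 9.45%, close to the 9.07% of control WT. The rest were near or in Gm13264, Gm15910 with Msrb3, Gm48619, Gm43539 with Fat4, Trpc2, Rcvrn, Gm49654, Klf5, Gm48578, Tmem51, Gm9898, Ank2 and Celsr2, with differences from 2.498 points at Rcvrn, the gene of recoverin, to 11.4 points at Klf5, a transcription factor of epithelia. At 0 of 38 SUBM regions near starts of germ cell list genes was a genotype difference called, against 0.628% called higher and 0.0697% called lower of all 2868. At such low shares, 38 regions are too few to tell these genes apart from the rest.

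**Figure D5:**
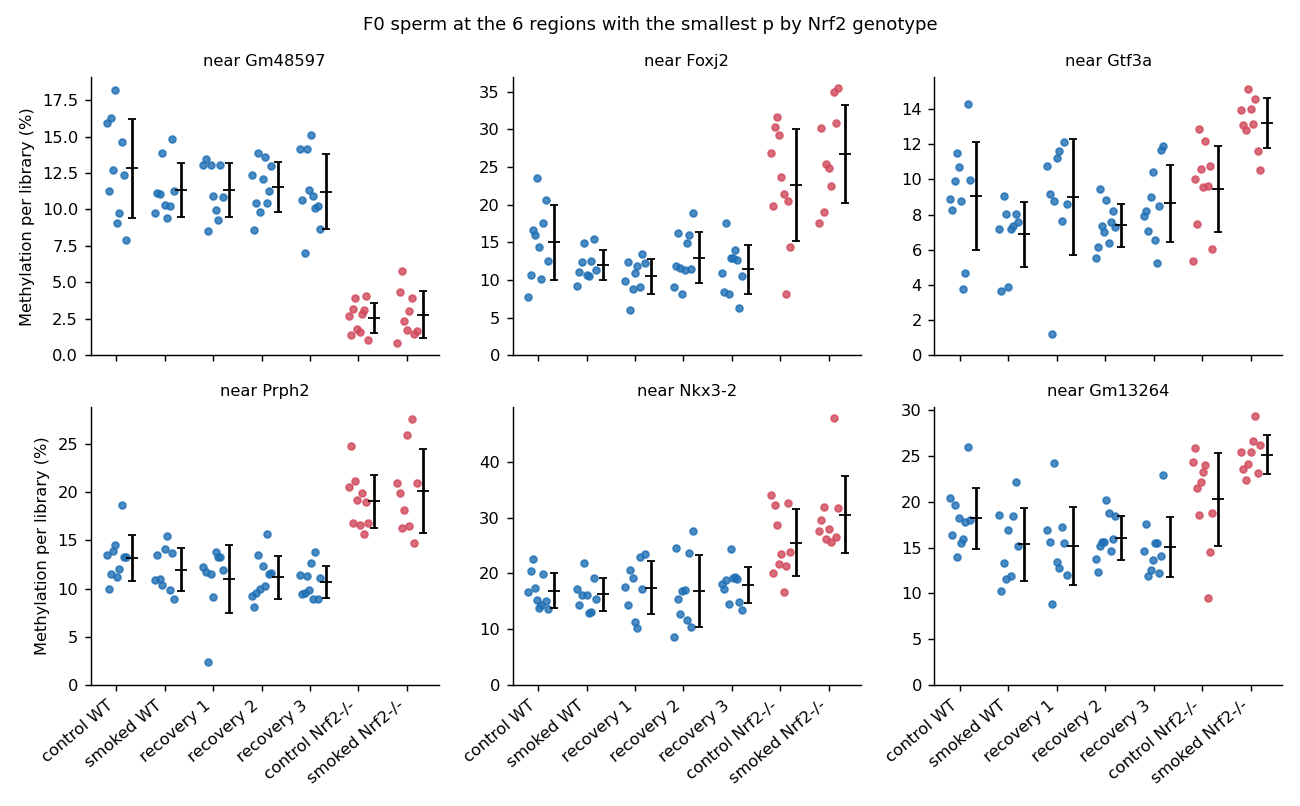
DNAme per library (%, points; each panel has its own axis from 0) in the 7 F0 sperm groups at the 6 SUBM regions with the smallest p by Nrf2 genotype, titled by the gene with the nearest start, with group mean and SD in black; WT is blue and Nrf2-/- red. At the region nearest to Gm48597 all 19 Nrf2-/- libraries lay below all WT libraries, and at the other 5 the smoked Nrf2-/- mean was above every WT group mean.

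CS itself could be tested in F0 sperm of Nrf2-/- males alone, and there it was associated with no call among SUBM regions. Between smoked and control Nrf2-/- sperm, limma called 0 of 2856 SUBM regions, and 0% of all 63362 regions were called, while 235 SUBM regions (8.23%, against 5.94% of all regions) had an unadjusted p under 0.05, 173 of them higher and 62 lower with CS. With levels near 0, a difference had more room upward here too. The smallest p was in a coding exon of Mitf, the regulator of pigment cells, with 14.4% ± 5.44 (n = 8) against 5.25% ± 2.90 (n = 9) and an adjusted p of 0.307, and 1 region was called without smoked Nrf2-/- column 4. Recovery 1, 2 and 3 were compared with smoked WT F0 sperm. All of these males were CS-exposed, so the comparison is of time since CS, which cannot be told apart from age at sampling. For the 3 recovery groups limma called 0 of 2890, 0 of 2899 and 0 of 2883 SUBM regions (0%, 0.00147% and 0.0246% of all regions), with 124 (71 higher, 53 lower), 99 (42 higher, 57 lower) and 136 (38 higher, 98 lower) at an unadjusted p under 0.05. These were 4.29%, 3.41% and 4.72% of SUBM regions, against 5.03%, 3.51% and 6.90% of all regions. The smallest p of recovery 3 was in an intron of Des, the gene of desmin, with 8.05% ± 7.27 against 20.2% ± 6.55 (n = 9 each, adjusted p = 0.198), and 1 region was called without recovery 3 column 10, on an arcsine square root scale or with array weights. Those of recovery 1 and 2 were in a coding exon of P2ry6, a nucleotide receptor (0.633% ± 0.672 against 3.61% ± 3.27, n = 9 each, adjusted p = 0.950), and near Gm33056 (1.25% ± 0.944, n = 10, against 4.202% ± 3.75, n = 9). Smoked WT against control WT F0 sperm had no test, since the control chose the regions. There the median difference was -0.189 points, and 7 of 2901 SUBM regions (0.241%) differed by over 10 points, against 0.719% of all regions.

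Paternal CS gave no call in the 2 comparisons of sons that could be tested, F1 sperm with WT sires and F1 brain with Nrf2-/- sires. In F1 sperm, limma called 0 of 1551 SUBM regions (0% of all 31948 regions), with 111 (74 higher, 37 lower) at an unadjusted p under 0.05, which is 7.16% against 5.49% of all regions, and the median difference was 0.537 points. The smallest p, nearest to A930002H24Rik, had 3.03% ± 1.12 (n = 6) in sons of smoked and 8.41% ± 2.13 (n = 4) in sons of control WT sires (adjusted p = 0.858). In F1 brain of Nrf2-/- sires, 0 of 2650 were called between smoked and control (0% of all 68810 regions), with 270 (10.2%, against 7.88% of all regions) at an unadjusted p under 0.05, of which 233 were lower in sons of smoked sires. At levels this high a difference had more room downward. The smallest p was at Zfp169, described next (adjusted p = 0.136), and 1 region was called without smoked Nrf2-/- column 7. F1 brain of smoked against control WT sires had no test, since the control chose the regions. There the median difference was 0.444 points, and 9 of 2889 SUBM regions (0.312%) differed by over 10 points, against 0.927% of all regions.

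Between sons of smoked Nrf2-/- and smoked WT sires, limma called 2 of 2654 SUBM regions, both lower with Nrf2-/- sires, against 0.0145% of all 68852 regions. In an intron of Rhd, a blood group gene (chr4:134868134-134868217), libraries ran from 69.7% to 90.5% (82.8% ± 7.36, n = 7) with Nrf2-/- sires and from 94.4% to 98.8% (96.0% ± 1.58, n = 7) with WT sires. In a coding exon of Zfp169, a zinc finger gene (chr13:48490386-48490593), they ran from 66.4% to 77.7% (73.0% ± 3.93, n = 8) and from 80.003% to 86.6% (82.8% ± 2.30, n = 7). The differences were -13.2 (SE 2.21) and -9.77 points (SE 1.68), with an adjusted p of 0.0395 each, and sons of control Nrf2-/- sires had 82.7% ± 2.74 (n = 8) at Zfp169. Libraries did not overlap at 18 of the 2654, against 0.184% of all regions. In all, 404 SUBM regions (15.2%, against 11.99% of all regions) had an unadjusted p under 0.05, 393 of them lower with Nrf2-/- sires, and the median difference was -1.46 points. The choice asked for high control WT F1 brain, so a difference from WT had more room downward, and this share and direction carry that choice. The median difference was 0.317 points over regions unmethylated in both and -0.899 over those methylated in both. Of the 8 brain libraries of smoked Nrf2-/- sires, 4 had values at 1914 to 2421 SUBM regions, with 12.1% to 17.3% over the imprinted promoters. The other 4 had 23.5% to 27.2% there, and smoked WT column 8 had 10.2% and values at 1424 SUBM regions. Over the 336 regions with a value in every library, the groups had 89.3% ± 0.830 and 90.1% ± 0.739. Without smoked WT column 8 and smoked Nrf2-/- column 2 together, 3 regions were called. When 1 library was left out, 0 were called without any of smoked WT columns 1 to 7 or without smoked Nrf2-/- column 2 or 4, and 1 without column 5 or 6. The count was 4 without column 8, 5 without smoked WT column 8 and 7 without smoked Nrf2-/- column 1. With the 2 groups fitted alone it was 0. All brain libraries with Nrf2-/- sires carried lower facility numbers than all those with WT sires. Sire genotype, the stock of the sires and the facility's series thus cannot be told apart here either.

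SUBM regions varied more between libraries than regions as a whole. The SD within groups had a median of 2.78 points over the 6 F0 sperm groups, against 2.09 over all regions, 0.822 over those unmethylated in both and 2.83 over those methylated in both. In the 3 brain groups it was 3.82 points, against 2.89, 0.801 and 3.15. The largest over the 6 F0 sperm groups was 19.4 points, near the start of 1700087I21Rik. Smoked WT libraries ran there from 10.8% to 29.5% (n = 9), a range too narrow for that SD, so the wider spread lay in other F0 sperm groups. In smoked WT F0 sperm, the 4-cytosine region near Gm33172 ran from 1.38% to 41.6% (n = 9), and the 3-cytosine region near Gm29235 from 2.67% to 54.8% (n = 7). The largest in brain was 23.0 points near Ap2s1, where libraries of smoked WT sires ran from 24.5% over 84.2% to 93.6% (n = 8). In an intron of Mia3 they ran from 21.2% over 87.0% to 100% (n = 8). These wide regions had 3 to 8 cytosines each.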

How the data were processed

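RRBS was made from sperm or prefrontal cortex DNA digested with MspI and TaqI in separate reactions that were pooled. The authors deposited a percent of methylated reads for each cytosine and library, from reads aligned with Bismark (version not given in the sources used here) to mm10. For their own analysis the authors kept CpGs with more than 8 reads in at least 4 replicates. Whether the deposited percents carry such a limit is not stated, and they come without read counts, so the depth of a value is unknown. Deposited columns carry facility numbers that match no sample label, so a library is named by its group and its column in that group, and 0 columns were left unused. By label each library is a single animal, and 1 control WT F1 brain sample has an Nrf2-/- strain label but a WT title.

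All deposited positions examined were in a CpG of GRCm38, and cytosines of both strands were kept apart. A library's value for a region was its mean percent over the cytosines with a value, adjusted for which cytosines had one, and needed 50% of them. The adjustment used cytosine means pooled over all groups of F0 sperm, of F1 sperm or of brain, the control groups of the choice included. A region was tested when 4 libraries of both groups had a value. Comparisons were fitted with limma 3.58.1 (R 4.3.3; empirical Bayes with trend) over all regions, with the groups of F0 sperm and of brain each sharing an estimate of spread and the comparisons across tissue or generation and within F1 sperm fitted on their 2 groups. P-values were adjusted by Benjamini-Hochberg at 0.05. Alternatives were the plain mean, an arcsine square root scale, 80% of the cytosines, array weights, the 2 groups alone and leaving out each library. The computations were tested on simulated data. Genes came from GENCODE.

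The members and lists were chosen with earlier results of these data known. A region is named by the gene with the nearest start. By rule, the text names the first 15 germ cell list regions and the first 10 of all by number of cytosines, the 5 largest and 3 smallest tissue differences, the smallest p of each comparison with up to 5 called regions, and the largest SDs. Other names, among them the pseudogenes, further germ cell genes and further called regions, were chosen after their values were seen. Regions on chromosome 18 were counted but are not named.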

Additional observations from a re-analysis of the deposited data

Results flagged for a closer look

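A library was marked where it stood apart from the others of its group by more than Dixon's limit, which chance passes in about 1 in 20 groups. Among 13 groups of library means over the SUBM regions, 2 were marked. Recovery 3 F0 sperm column 7 had 4.94%, where the other libraries had 5.37% to 5.79%. F1 brain of smoked WT sires column 8 had 87.3%, where the others had 89.1% to 90.7%, and it had a value at 1424 SUBM regions, the fewest of its group.

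Among 44 groups at the regions called by genotype, 3 were marked. Near Nkx3-2, smoked Nrf2-/- F0 sperm column 7 had 47.8%, where the others had 25.7% to 31.9%. At the start of Rcvrn, smoked WT F0 sperm column 7 had 4.61%, where the others had 1.99% to 3.28%. Near Klf5, smoked Nrf2-/- F0 sperm column 1 had 35.1%, where the others had 15.8% to 24.4%.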

How the results depend on the processing

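By the replicate numbers of the labels, no paired analysis was possible because the deposited columns do not carry them. The facility numbers of the WT F0 libraries do run in repeating sets of 5, 1 library for each group, with some missing, but no label says that a set marks a pair. A block on these 10 sets, chosen after seeing the data and fitted by limma to the 38 smoked WT and recovery libraries alone, called 0 SUBM regions for each recovery group, with 184, 153 and 190 at an unadjusted p under 0.05 for recovery 1, 2 and 3, of which 90, 52 and 48 were higher in the recovery group and the rest lower. For recovery 1 the balance thus went from 71 higher and 53 lower in the fit over all groups to 90 and 94. Without the block these 4 groups alone also gave 0. The number of SUBM regions was 1727 with a joining distance of 50 bp and 1158 with thresholds of 10% and 90%. With 80% of the cytosines required, the tissue contrast called 1443 of 1446 regions tested and F1 against F0 sperm 534 of 1451, fewer because fewer were tested. The genotype count in F0 sperm, 20, was 33 with array weights and 10 with the 2 groups alone. Recovery 3 went from 0 to 1 on the arcsine square root scale and to 1 with array weights. The genotype count in brain, 2, was 1 with the plain mean, 1 on the arcsine scale and 0 with the 2 groups alone. The causes of these shifts, other than the fewer regions tested, were not tested. In 51 other settings the count stayed within 1.5 times.

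When each library was left out in turn, calls ran from 1854 to 2261 in the tissue contrast, from 672 to 794 in F1 against F0 sperm, from 13 to 28 by genotype in F0 sperm and from 0 to 7 by genotype in brain. They ran from 0 to 1 for smoke in Nrf2-/- sperm, for recovery 3 and for paternal smoke with Nrf2-/- sires in brain, and were 0 each time for recovery 1, recovery 2 and paternal smoke in F1 sperm. Since the read depth behind a percent is unknown, no counting error could be given.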

Other observations

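Several SUBM regions named for the genotype in F0 sperm had another level in F1 sperm of smoked WT sires. Trpc2 had 28.5% ± 7.41 (n = 7) there against 7.73% ± 1.33 (n = 9) in smoked WT F0 sperm, and Celsr2 had 32.8% ± 6.84 (n = 7) against 14.3% ± 3.25 (n = 9). The exon of Gm4482 in Slc2a3 had 5.39% ± 1.37 (n = 7), below the 9.21% of the lowest smoked WT F0 library. Near Lpl, F1 sperm had 6.06% ± 1.16 (n = 5) against 16.9% ± 2.04 (n = 9). These genes were chosen after their values were seen.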
